A study of Mus musculus with 18 samples.

Results

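Neurospheres (NSPs), the proliferating state, were compared over all genes with the untreated cells derived from them after 72 h of astrocytic differentiation. The comparison used 6 of the 18 RNA-seq libraries of the series, 3 cultures per group, which were assigned to groups by their labels. Primary NSPs were started from single wild type C57BL/6J brains, taken in the ventricular zone at embryonic day 14, and grew as free-floating spheres in DMEM F12 with 1% B27 lacking vitamin A and 20 ng/ml EGF, with no TNF. The 72 h cells were plated on poly-L-ornithine in DMEM with 10% foetal bovine serum, also without TNF. Both groups therefore carried the same genotype and no transgene, while time, EGF, serum and attachment changed together and their parts cannot be told apart. The other 12 libraries (24 h, 1 week and the TNF-treated cultures) entered the count filter, the scaling and the estimate of the spread.

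Neural stem cells of the embryonic ventricular zone divide under EGF and can form neurons, oligodendrocytes and astrocytes. Serum is the classical stimulus for the astrocytic fate in culture, and cytokines that signal through the shared receptor subunit gp130, and BMPs, are known to drive it. Astrocytes supply neurons with metabolites, clear glutamate and potassium from the extracellular space, and carry the intermediate filament protein GFAP. After injury they can enter reactive states marked by complement, interferon-response and cytoskeletal genes.

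Of 54838 genes in the table, 20067 had enough counts to be tested. Levels are given in CPM, the share of a library's counts on a common scale, and fold changes as log2 of 72 h over NSPs from edgeR, with its standard error. At an adjusted p under 0.05, 5647 genes (28.1% of those tested) were higher at 72 h and 5457 (27.2%) were lower, with a median log2 fold change of 0.05 over all tested genes. Of these, 3828 (19.1%) were higher by 2-fold or more and 2653 (13.2%) lower by as much. Each gene list below is read against these shares, since 55.3% of all tested genes were called in one direction or the other, and in 59.8% the groups did not overlap.

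Total counts were between 17326245 and 19045824 in NSPs and between 12598024 and 19106651 at 72 h. NSP replicate 1 stood apart from its group: its log2 CPM differed from those of NSP replicates 2 and 3 by a root mean square of 0.685 and 0.659, whereas those 2 differed by 0.373. At 72 h, replicate 1 differed from replicates 2 and 3 by 0.500 and 0.633, and those 2 from each other by 0.413. In NSP replicate 1 the summed CPM of a DNA replication list was 5086, against 2299 and 2402 in the other NSPs, and that of a list of astrocyte genes was 9759, against 12147 and 12157. Results that lose their call without 1 library are given with both values. Differences between the groups were larger, with a root mean square from 1.36 to 1.62 over the 9 pairs of libraries. The methods describe data in general as coming from independent biological experiments, but no label ties a culture to an animal, and p-values measure only the spread between these cultures. RNA quality numbers were stated as 3.4 to 10 for the study as a whole, and their part in any result was not tested.

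**Figure D1:**
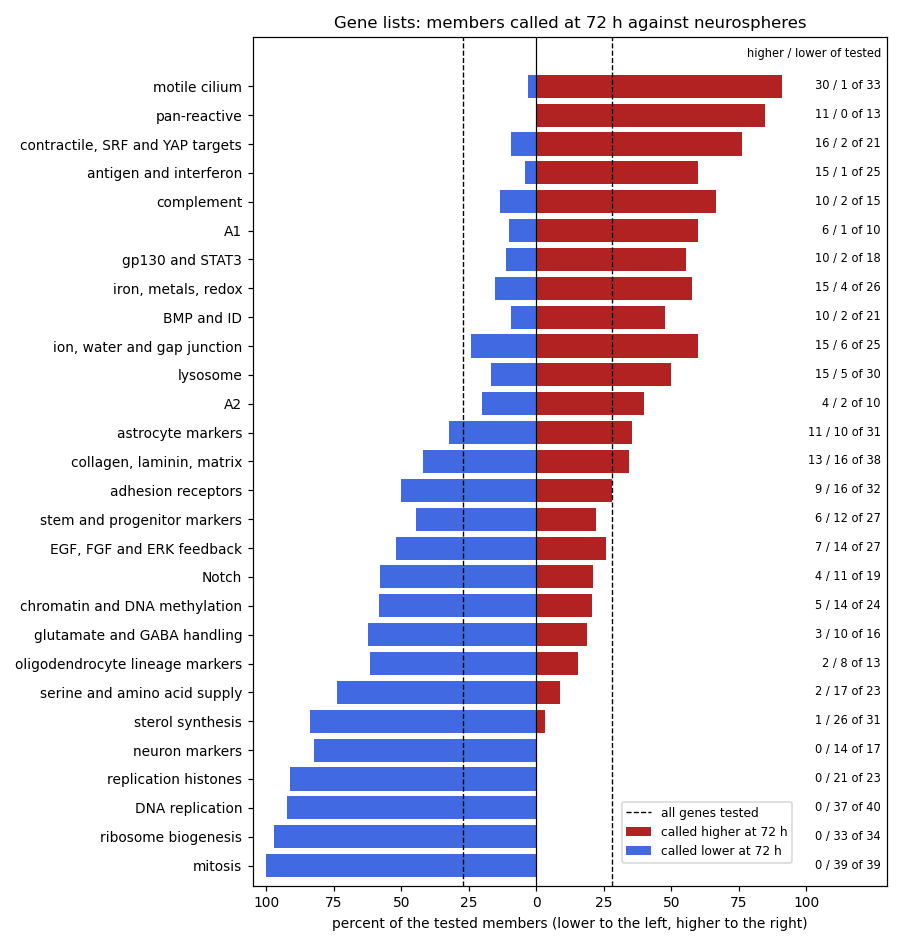
Percent of tested members of 28 gene lists that were called higher (right) or lower (left) at 72 h than in NSPs at an adjusted p under 0.05; the dashed lines mark the same percentages over all 20067 tested genes (28.1% higher, 27.2% lower). Lists of mitosis, DNA replication, replication histones and ribosome biogenesis lie almost wholly on the lower side, and the motile cilium and pan-reactive lists on the higher side.

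Sequences before the start sites of cell cycle genes are shown first, since every tested gene of mitosis was lower at 72 h. Genes of mitosis often carry the cell cycle homology region (CHR) and CCAAT boxes, while genes of DNA replication often carry E2F sites. The 120 bases before the annotated start follow 5′ to 3′ along the gene (RefSeq, GRCm38.p6), with the letters of 3 motifs in capitals on whichever strand they were found. The CHR was searched as TTTGAA and as the related letters TTCGAA. Boxes with the letters CCAAT read ATTGG where they lie on the opposite strand. E2F sites were searched as TTTGGCGC, TTTCCCGC, TTTCGCGC or TTTGCCGC. Besides *Mki67* and *Ccnb1*, they are the first genes in list order with CHR letters (mitosis) or E2F letters (DNA replication) in this stretch, a rule set after their values were seen.
*Mki67*, chr7:135716380-135716499, minus strand: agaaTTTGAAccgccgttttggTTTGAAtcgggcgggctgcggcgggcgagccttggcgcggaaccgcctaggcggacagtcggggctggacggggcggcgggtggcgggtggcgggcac
*Cdk1*, chr10:69352913-69353032, minus strand: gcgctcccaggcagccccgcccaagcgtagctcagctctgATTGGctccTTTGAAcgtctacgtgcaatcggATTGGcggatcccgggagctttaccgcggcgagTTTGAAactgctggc
*Cdc20*, chr4:118437344-118437463, minus strand: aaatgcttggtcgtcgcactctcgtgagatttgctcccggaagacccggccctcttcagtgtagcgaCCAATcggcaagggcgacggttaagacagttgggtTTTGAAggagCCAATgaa
*Ccnb1*, chr13:100786487-100786606, minus strand: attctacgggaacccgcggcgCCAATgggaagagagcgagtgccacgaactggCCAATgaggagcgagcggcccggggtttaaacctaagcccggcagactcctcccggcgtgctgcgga
*Mcm6*, chr1:128359706-128359825, minus strand: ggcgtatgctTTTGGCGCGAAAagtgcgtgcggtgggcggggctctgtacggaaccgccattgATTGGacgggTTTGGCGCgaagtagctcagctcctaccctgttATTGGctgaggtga
*Gins3*, chr8:95633439-95633558, plus strand: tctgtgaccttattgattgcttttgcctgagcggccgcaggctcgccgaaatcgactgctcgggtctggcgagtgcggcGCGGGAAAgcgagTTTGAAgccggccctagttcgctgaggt
*Rfc3*, chr5:151651209-151651328, minus strand: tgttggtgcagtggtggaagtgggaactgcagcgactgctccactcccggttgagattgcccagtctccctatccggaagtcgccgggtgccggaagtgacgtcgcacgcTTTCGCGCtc
The letters stood 116 and 98 bases before the start of *Mki67* (both CHR), 71 and 15 bases before that of *Cdk1*, and 18 bases before that of *Cdc20*. *Ccnb1* had no CHR letters in this stretch but CCAAT boxes 99 and 67 bases before its start. E2F letters stood 110, 106 and 47 bases before the start of *Mcm6*, where the first pair overlap, and 41 and 10 bases before those of *Gins3* and *Rfc3*.

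Counted on both strands over 250 bases before to 50 after the start, CHR letters were present in 28 of 34 promoters of the mitosis list (82.4%), in 6 of 37 promoters of the DNA replication list (16.2%) and in 19.2% of all 32851 mouse promoters. For E2F letters the shares were 3 of 34 (8.82%), 13 of 37 (35.1%) and 2.26%. CCAAT boxes were in 82.4% of mitosis promoters, 59.5% of DNA replication promoters and 37.4% of all. In each list 32 genes had a promoter sequence. These matches describe letters and are not measurements of binding.

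Genes of the dividing cell fell together. All 39 tested members of the mitosis list were lower at 72 h, with a median log2 fold change of -5.63, and 37 of 40 DNA replication genes were lower, with a median of -2.44; none of either list was higher. *Mki67* (chromosome 7, 135689784 to 135716361, minus strand), which encodes the proliferation marker Ki-67, was at 493, 457 and 471 CPM in NSPs and 1.44, 1.35 and 1.38 CPM at 72 h (log2 fold change -8.41 ± 0.56, edgeR adjusted p = 5.42e-10). *Ccnb1*, the mitotic cyclin B1, was at 248, 148 and 157 CPM in NSPs and 0.378, 0.368 and 1.21 CPM at 72 h (log2 fold change -8.06 ± 0.45, edgeR adjusted p = 5.8e-11). The 3 cultures of a group lay close together in *Mki67*, and in both genes the lowest NSP culture was far above the highest 72 h culture. *Cdk1*, the mitotic kinase, was at 213, 106 and 118 CPM in NSPs and 3.33, 3.87 and 4.95 CPM at 72 h (log2 fold change -5.15 ± 0.30), and *Cdc20*, an activator of the anaphase-promoting complex, at 114, 86.7 and 87.7 CPM in NSPs and 1.36, 0.859 and 1.21 CPM at 72 h (log2 fold change -6.39 ± 0.27). The groups did not overlap in any of these genes. In bulk RNA fewer cells of a type and less RNA per cell cannot be told apart, here and in every list. The spindle genes *Bub1* and *Ska1* and the ubiquitin-conjugating enzyme gene *Ube2c* were at or under 3 counts in each 72 h library, which makes them at least 446-fold, 71.2-fold and 301-fold lower.

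Genes of the replication machinery differed in how far they fell. *Mcm2* and *Mcm3*, subunits of the replicative helicase, were at 197, 92.9 and 100 CPM in NSPs and 10.7, 9.57 and 12.2 CPM at 72 h (log2 fold change -3.59 ± 0.29) and at 254, 86.1 and 82.1 CPM in NSPs and 6.66, 8.16 and 7.87 CPM at 72 h (log2 fold change -4.21 ± 0.40), respectively. *Pcna*, the sliding clamp of DNA polymerases, was at 350, 154 and 158 CPM in NSPs and 35, 46.6 and 58 CPM at 72 h (log2 fold change -2.24 ± 0.26). *Mcm6* (log2 fold change -1.40 ± 0.29), *Gins3* (log2 fold change -1.96 ± 0.31) and *Rfc3* (log2 fold change -2.24 ± 0.24), whose promoters are printed above, were each lower by less than *Uhrf1*, which directs maintenance DNA methylation and was at 217, 86.4 and 92 CPM in NSPs and 1.06, 0.92 and 1.16 CPM at 72 h (log2 fold change -6.96 ± 0.48). Without NSP replicate 1 the log2 fold change of *Mcm6* was -0.75. The mitosis and DNA replication lists together took 0.831% ± 0.245 (SD, n = 3) of counts in NSPs and 0.103% ± 0.008 (n = 3) at 72 h (exact permutation test, two-sided p = 0.1, the smallest p that 3 against 3 allows).

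In a list of G1 regulators (cyclins, cyclin-dependent kinases, their inhibitors, E2F and retinoblastoma family genes and other growth arrest genes), 17 of 27 were lower and 7 higher. The D cyclins, which couple mitogens to the G1 phase, moved in opposite directions. *Ccnd1* was at 671, 321 and 332 CPM in NSPs and 10.3, 9.33 and 13.4 CPM at 72 h (log2 fold change -5.32 ± 0.46, edgeR adjusted p = 1.56e-08) and *Ccnd2* was lower too (log2 fold change -2.11), while *Ccnd3* was at 28.2, 27.2 and 26 CPM in NSPs and 44.3, 46.5 and 42.5 CPM at 72 h (log2 fold change 0.71 ± 0.12, edgeR adjusted p = 5.24e-05). *Ccne1* (log2 fold change -4.32) and *Cdk6* (-3.06) were lower. Of the replication-dependent histone genes, 21 of 23 tested were lower and none was higher, as seen for the linker histone gene *Hist1h1b*, at 352, 219 and 206 CPM in NSPs and 2.5, 2.88 and 3.52 CPM at 72 h. Ribosomal RNA was depleted in place of poly(A) selection, so these transcripts, which mostly lack poly(A) tails, could be counted. Another linker histone gene, *Hist1h1c*, fell less (log2 fold change -1.33), from a range of 343 to 449 CPM to one of 122 to 179 CPM.

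**Figure D2:**
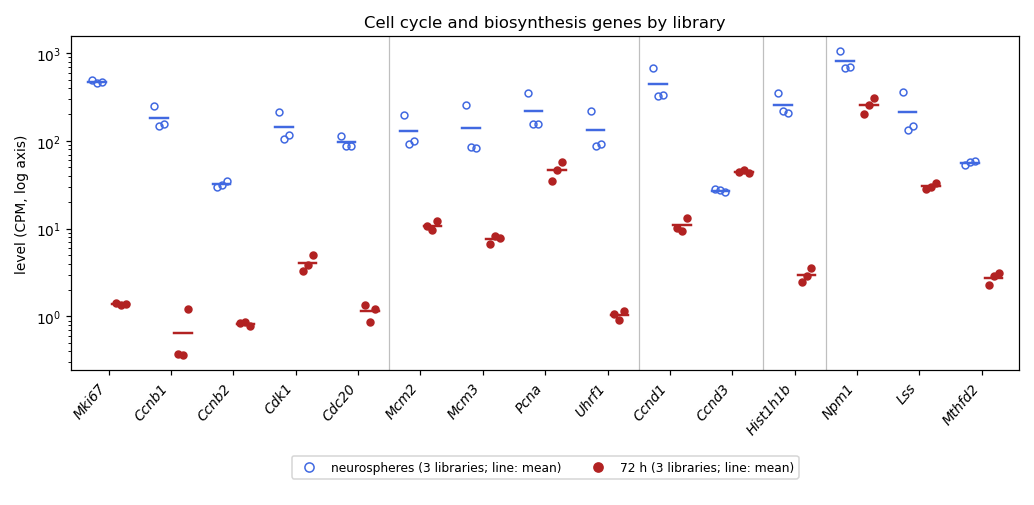
Level in CPM (log axis) of mitosis, DNA replication, G1 cyclin, histone and biosynthesis genes in each of 3 NSP cultures (open circles) and 3 cultures at 72 h (filled circles), with the group mean as a line. *Mki67* and *Ccnb1* fell by the most, *Pcna* and *Npm1* by less, and *Ccnd3* was the gene shown that was higher at 72 h.

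Anabolic genes were lower at 72 h as well. In the sterol synthesis list 26 of 31 tested members were lower, with a median log2 fold change of -1.80. *Lss*, lanosterol synthase, was at 360, 132 and 147 CPM in NSPs and 28.4, 29.7 and 33.2 CPM at 72 h (log2 fold change -2.80 ± 0.36, edgeR adjusted p = 2.9e-06), and *Fdps*, which acts before it in the pathway, had a log2 fold change of -3.02. The single member that was higher was *Hsd17b7*, at 89.5, 34.4 and 33.3 CPM in NSPs and 132, 139 and 159 CPM at 72 h. In a list of lipid carriers, by contrast, 5 of 19 were higher and 8 lower. The cholesterol exporter gene *Abca1* was at 56.4, 308 and 300 CPM in NSPs and 1167, 1228 and 1051 CPM at 72 h (log2 fold change 2.37 ± 0.42), and the fatty acid-binding protein gene *Fabp5* had a log2 fold change of -2.54.

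Serine, one-carbon and amino acid response genes were lower in 17 of 23 cases and higher in 2. *Mthfd2*, a mitochondrial enzyme of folate metabolism that is typical of dividing cells, was at 52.6, 58 and 58.6 CPM in NSPs and 2.27, 2.88 and 3.14 CPM at 72 h (log2 fold change -4.34 ± 0.35, edgeR adjusted p = 7.25e-09). *Asns*, asparagine synthetase, was at 104, 143 and 149 CPM in NSPs and 13.2, 18.3 and 22.6 CPM at 72 h (log2 fold change -2.87 ± 0.29), and *Psat1*, an enzyme of serine synthesis, at 399, 380 and 392 CPM in NSPs and 113, 134 and 175 CPM at 72 h (log2 fold change -1.47 ± 0.19). All 3 genes kept the groups apart. Ribosome biogenesis genes were lower in 33 of 34 cases, with the smaller median of -1.09, and the nucleolar protein gene *Npm1* was at 1046, 674 and 695 CPM in NSPs and 202, 258 and 311 CPM at 72 h. Most genes of this list, like *Npm1*, had their highest level in NSP replicate 1. *Eef1a1*, which encodes an elongation factor and had the highest level per exon length of nuclear protein-coding genes in both groups, was at 3193 RPKM in NSPs and 1359 RPKM at 72 h (log2 fold change -1.23 ± 0.15).

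Several genes that respond to EGF signalling were lower at 72 h. In the list of EGF, FGF and ERK feedback genes 14 of 27 were lower and 7 higher. The receptor gene *Egfr* was at 1060, 906 and 895 CPM in NSPs and 412, 376 and 372 CPM at 72 h (log2 fold change -1.30 ± 0.13), a smaller log2 change than those of *Etv4*, *Etv5*, *Spry1* and *Spry4*. The ETS factor gene *Etv4* was at 99.6, 107 and 106 CPM in NSPs and 2.72, 3.44 and 2.53 CPM at 72 h (log2 fold change -5.17 ± 0.30, edgeR adjusted p = 9.24e-11), and the feedback inhibitor gene *Spry4* at 133, 68 and 60.2 CPM in NSPs and 3.25, 2.58 and 2.64 CPM at 72 h (log2 fold change -4.95 ± 0.35). *Etv5* (-3.68) and *Spry1* (-4.06) had log2 fold changes of similar size, and *Erbb2*, a partner receptor, was higher (0.81). *Egr1*, an immediate early gene taken by the study as a stem cell marker, was at 38.7, 22.1 and 14 CPM in NSPs and 15.1, 11.5 and 8.03 CPM at 72 h. The groups overlapped, and it was not called (log2 fold change -1.12 ± 0.56, edgeR adjusted p = 0.0966), although a fit of these 6 libraries alone gave an edgeR adjusted p = 0.0289.

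Notch genes were mostly lower. 11 of 19 tested members were lower and 4 higher, with a median log2 fold change of -1.76. The effector gene *Hes5* (chromosome 4, 154960923 to 154962371) was at 24.5, 99 and 94 CPM in NSPs and 0.151, 0.614 and 0.33 CPM at 72 h (log2 fold change -7.56 ± 0.69, edgeR adjusted p = 3.62e-08). The ligand genes *Jag1* and *Dll3* had log2 fold changes of -4.51 and -5.04, and the glycosyltransferase gene *Mfng*, which tunes the receptors, one of -6.44. Of the receptors, *Notch1* was at 349, 534 and 493 CPM in NSPs and 302, 271 and 200 CPM at 72 h (log2 fold change -0.83 ± 0.23), whereas *Notch2* was at 125, 172 and 164 CPM in NSPs and 469, 414 and 329 CPM at 72 h (log2 fold change 1.39 ± 0.17). The remaining members that were higher were *Hey1* (1.09), *Dll4* (1.80) and the Notch antagonist *Numb* (1.12).

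Progenitor genes did not move as 1 group. Of 27 tested members of a stem and progenitor list, 12 were lower, 6 higher and 9 not called. *Olig2* (chromosome 16, 91225457 to 91228677), a transcription factor of progenitors and oligodendrocytes, was at 444, 397 and 404 CPM in NSPs and 21, 21.2 and 18.4 CPM at 72 h (log2 fold change -4.36 ± 0.21). *Fabp7*, a fatty acid-binding protein of radial glia, was at 2844, 2147 and 2133 CPM in NSPs and 265, 321 and 446 CPM at 72 h (log2 fold change -2.79 ± 0.34); in NSPs it had the second highest level per exon length of nuclear protein-coding genes (1899 RPKM in NSPs and 275 RPKM at 72 h). *Hmga2*, a chromatin protein of fetal stem cells, had a log2 fold change of -4.05. On the other side, *Hopx* (2.97), a gene of quiescent stem cells, and the intermediate filament gene *Vim* (0.69) were higher. *Cd44*, the hyaluronan receptor used by the study as a stem cell marker, was at 96, 49.8 and 43.6 CPM in NSPs and 148, 167 and 149 CPM at 72 h and was higher at 72 h (log2 fold change 1.29 ± 0.35, edgeR adjusted p = 0.0042). *Nes*, which encodes nestin, was at 1798, 1055 and 1127 CPM in NSPs and 713, 824 and 1020 CPM at 72 h and was not called (log2 fold change -0.64 ± 0.28, edgeR adjusted p = 0.0629), whereas without 72 h replicate 3 or without NSP replicate 2 it was (edgeR adjusted p = 0.0476 and 0.0421).

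Astrocyte genes were likewise mixed. The list of 32 astrocyte genes, of which 31 were tested, had 11 members higher, 10 lower and 10 not called, with a median log2 fold change of 0.08. *Gfap* (chromosome 11, 102887336 to 102900912, minus strand) rose 89.4-fold, with 11.6, 37.3 and 32.4 CPM in NSPs and 1855, 3172 and 2270 CPM at 72 h (log2 fold change 6.48 ± 0.68, edgeR adjusted p = 2.44e-07). *Clu*, a secreted lipid-binding chaperone gene (chromosome 14, 65968483 to 65981547), rose 124-fold, with 4.13, 7.85 and 7.4 CPM in NSPs and 655, 859 and 895 CPM at 72 h (log2 fold change 6.95 ± 0.24, edgeR adjusted p = 3.44e-13). *Aqp4*, the water channel of astrocytic endfeet, was at 55.6, 208 and 213 CPM in NSPs and 665, 996 and 954 CPM at 72 h (log2 fold change 2.46 ± 0.40, edgeR adjusted p = 4.3e-05). In these 3 genes NSP replicate 1 had the lowest level, and every 72 h culture lay above every NSP culture.

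Other astrocyte genes that the study names behaved differently from one another. *Gpld1*, a phospholipase gene, was at 3.74, 6.86 and 7.96 CPM in NSPs and 58.3, 74.5 and 70.1 CPM at 72 h (log2 fold change 3.44 ± 0.20), although 45.5% of its exon bases overlap another gene. *Slc14a1*, a urea transporter gene, was at 0.444, 1.54 and 0.967 CPM in NSPs and 12.2, 16.8 and 13.8 CPM at 72 h (log2 fold change 3.83 ± 0.42), and *Kcnj10*, which encodes the potassium channel Kir4.1, at 149, 112 and 99 CPM in NSPs and 507, 349 and 287 CPM at 72 h (log2 fold change 1.66 ± 0.28, edgeR adjusted p = 5.7e-05). The glutamate transporter genes did not follow them. *Slc1a2* (GLT-1) was at 435, 422 and 422 CPM in NSPs and 366, 366 and 270 CPM at 72 h and was not called (log2 fold change -0.35 ± 0.22, edgeR adjusted p = 0.194). *Slc1a3* (GLAST) was at 3381, 2791 and 2977 CPM in NSPs and 1861, 2287 and 2460 CPM at 72 h and slightly lower (log2 fold change -0.47 ± 0.17, edgeR adjusted p = 0.0233), a call that was lost without NSP replicate 1 (log2 fold change -0.39, edgeR adjusted p = 0.079) and without 72 h replicate 1 (-0.36, edgeR adjusted p = 0.11). *Gja1*, which encodes the gap junction protein connexin 43, was at 112, 302 and 287 CPM in NSPs and 445, 604 and 569 CPM at 72 h; the groups did not overlap, but the call failed (log2 fold change 1.21 ± 0.54, edgeR adjusted p = 0.0674), and passed in a fit of the 6 libraries alone (edgeR adjusted p = 0.0083).

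Some other markers of mature astrocytes were lower. *Glul*, glutamine synthetase, was at 572, 506 and 529 CPM in NSPs and 272, 328 and 368 CPM at 72 h (log2 fold change -0.73 ± 0.14, edgeR adjusted p = 0.00019). *Aldoc*, the brain aldolase, was at 1010, 1232 and 1301 CPM in NSPs and 444, 621 and 679 CPM at 72 h (log2 fold change -1.02 ± 0.17), and *S100b* had a log2 fold change of -0.63. *Aldh1l1*, a folate enzyme used as a marker of astrocytes, was at 8.44, 15 and 15.3 CPM in NSPs and 6.74, 9.26 and 8.42 CPM at 72 h and was not called (log2 fold change -0.67 ± 0.30, edgeR adjusted p = 0.0663); without NSP replicate 1 it was (-0.90, edgeR adjusted p = 0.019). *Apoe*, the main lipoprotein of astrocytes, was higher, at 313, 1268 and 1117 CPM in NSPs and 1814, 3010 and 2443 CPM at 72 h (log2 fold change 1.43 ± 0.45, edgeR adjusted p = 0.0116), and per exon length it was the third most abundant nuclear protein-coding gene at 72 h (1133 RPKM). Summed over 9 defining astrocyte markers the level was from 5634 to 5893 CPM in NSPs and from 5968 to 8473 CPM at 72 h, but of these markers 2 were called higher, *Gfap* and *Aqp4*, and 4 lower.

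**Figure D3:**
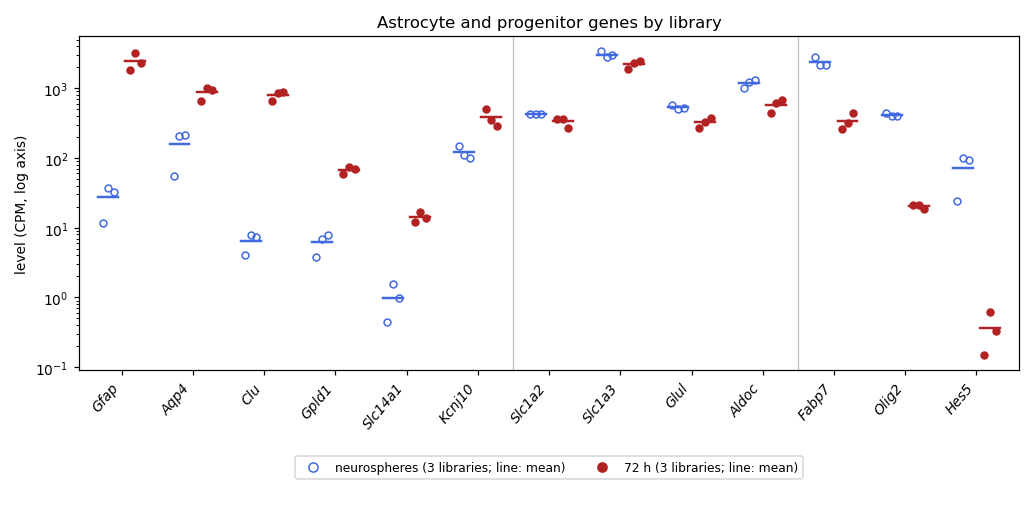
Level in CPM (log axis) of astrocyte and progenitor genes in each of 3 NSP cultures (open circles) and 3 cultures at 72 h (filled circles), with the group mean as a line. *Gfap* and *Clu* were higher by 89.4-fold and 124-fold, *Slc1a3*, *Glul* and *Aldoc* fell by 0.47 to 1.02 on the log2 scale, *Slc1a2* was not called, and the progenitor genes *Fabp7*, *Olig2* and *Hes5* were lower at 72 h.

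Of 25 tested genes for ion, water and gap junction channels, 15 were higher and 6 lower. The background potassium channel gene *Kcnk2* was higher (log2 fold change 3.99) and the connexin gene *Gjc3* lower (-2.88).

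Genes of glutamate and GABA handling were lower in 10 of 16 cases and higher in 3, a count of higher members that came to 1 without NSP replicate 1, 72 h replicate 2 or 72 h replicate 3. *Slc6a11*, the GABA transporter GAT3, was at 457, 590 and 545 CPM in NSPs and 40.4, 64.6 and 41.4 CPM at 72 h (log2 fold change -3.44 ± 0.29), and the neutral amino acid carrier gene *Slc1a4* had a log2 fold change of -3.38. Transmitter receptors were split 10 higher and 11 lower of 30. *Grm5*, the metabotropic glutamate receptor of immature astrocytes, was at 440, 416 and 447 CPM in NSPs and 46.3, 53.9 and 47.5 CPM at 72 h (log2 fold change -3.14 ± 0.23), and *Grm3*, another such receptor, fell too (-2.60). The AMPA receptor subunit gene *Gria1* was higher, at 1.59, 0.329 and 0.398 CPM in NSPs and 22.5, 34.4 and 21.4 CPM at 72 h (log2 fold change 5.11 ± 0.51).

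Glucose and glycogen genes showed no common direction. The glycogen list had 7 higher and 6 lower of 18, and the glycolysis list 6 and 9 of 22. The glycogen phosphorylases went apart: *Pygb*, the brain form, was higher (log2 fold change 0.84) and *Pygm*, the muscle form, lower (-3.37). Of the other genes that the study takes as signs of astrocyte metabolism, *Lmbrd1* (0.99) and *Pid1* (0.66) were higher, while *Ppp1r3c*, a glycogen-targeting phosphatase subunit gene, was not called (log2 fold change 0.08 ± 0.21, edgeR adjusted p = 0.765). *Ugp2*, of glycogen synthesis, was not called either (log2 fold change 0.37 ± 0.18, edgeR adjusted p = 0.0898), though it was without 72 h replicate 1 (0.52, edgeR adjusted p = 0.0251). *Pfkp*, a phosphofructokinase gene, was at 6.98, 8.07 and 6.71 CPM in NSPs and 149, 145 and 160 CPM at 72 h (log2 fold change 4.38 ± 0.17), and *Slc16a1*, which encodes the lactate carrier MCT1, at 113, 79.4 and 78.8 CPM in NSPs and 428, 554 and 652 CPM at 72 h (log2 fold change 2.59 ± 0.18). *Ldha*, lactate dehydrogenase A, fell, with 348, 361 and 387 CPM in NSPs and 107, 134 and 168 CPM at 72 h (log2 fold change -1.42 ± 0.15). All 3 kept the groups apart.

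In the gp130 and STAT3 list 10 of 18 tested genes were higher and 2 lower. *Stat3* itself was not in this list and was not called (log2 fold change 0.21 ± 0.12, edgeR adjusted p = 0.156). *Il6st*, which encodes gp130 itself (chromosome 13, 112464070 to 112510086), rose 12-fold, with 160, 168 and 158 CPM in NSPs and 1743, 2148 and 1952 CPM at 72 h (log2 fold change 3.59 ± 0.15, edgeR adjusted p = 3.17e-12). *Osmr*, the oncostatin M receptor, was at 1.27, 1.54 and 0.853 CPM in NSPs and 43.7, 46.6 and 40.9 CPM at 72 h (log2 fold change 5.15 ± 0.37, edgeR adjusted p = 1.34e-09), and *Il6ra*, the interleukin 6 receptor, had a log2 fold change of 3.79. *Socs3*, a feedback inhibitor induced by STAT3, was at 2.35, 3.29 and 2.79 CPM in NSPs and 15.8, 18.4 and 18.6 CPM at 72 h (log2 fold change 2.64 ± 0.22). *Lifr* was at 519, 389 and 401 CPM in NSPs and 168, 171 and 158 CPM at 72 h (log2 fold change -1.40 ± 0.17) and *Cntfr* was lower too (-1.70). The ligand gene *Clcf1*, named by the study, was at 0 counts in all NSPs and at 0.303, 0.368 and 0.385 CPM at 72 h, which makes it at least 2.01-fold higher.

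BMP and ID genes were higher in 10 of 21 cases and lower in 2. The ligand genes went in opposite directions, with *Bmp6* at 0.317, 0.604 and 0.853 CPM in NSPs and 16.8, 20.2 and 17.3 CPM at 72 h (log2 fold change 4.90 ± 0.39) and *Bmp7* at 46.3, 37.9 and 36.7 CPM in NSPs and 7.11, 5.95 and 6.16 CPM at 72 h (log2 fold change -2.65 ± 0.21). *Id4*, an inhibitor of DNA binding that BMPs induce, was at 18.3, 43.9 and 41.5 CPM in NSPs and 205, 276 and 320 CPM at 72 h (log2 fold change 2.95 ± 0.27). The transducer and inhibitor genes *Smad9* (3.15) and *Smad6* (3.37) were higher. Each of *Bmp6*, *Bmp7* and *Id4* kept its 3 cultures of one group clear of the other.

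Pan-reactive genes were mostly higher at 72 h, in cultures without added TNF. Of 13 pan-reactive genes 11 were higher and none lower, with a median log2 fold change of 3.31. The list of genes induced by inflammation (A1) had 6 of 10 higher and 1 lower, with a median of 2.11, or 1.75 with genes at the detection floor set to their bound, and that of genes induced by ischaemia (A2) 4 of 10 higher and 2 lower, with medians of 0.84 and 0.60. Where at least 10 counts were required in every library, genes near 0 in NSPs were not tested, and 5 pan-reactive genes, 4 complement genes and 15 genes of the motile cilium were called higher. Under that filter 4294 of all 14274 tested genes were called higher. How many members of each list stayed in the test is not given here. *Steap4* and *Aspg*, both pan-reactive, were at least 14.8-fold and 48.9-fold higher. *Ggta1* of the A1 list was at least 32-fold higher, but *Fkbp5* of the same list fell, at 47, 21.2 and 23.2 CPM in NSPs and 3.33, 4.17 and 5.12 CPM at 72 h (log2 fold change -2.84 ± 0.28). In the A2 list *Tm4sf1*, a membrane protein gene, was at 1.52, 0.769 and 0.74 CPM in NSPs and 189, 253 and 264 CPM at 72 h (log2 fold change 7.87 ± 0.35), and the lower members were *B3gnt5*, a glycosyltransferase gene (log2 fold change -2.14), and *Sphk1*, a sphingosine kinase gene (-1.25, edgeR adjusted p = 0.0108), whose call was lost without NSP replicate 3 (-1.04, edgeR adjusted p = 0.0505).

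Complement genes were higher in 10 of 15 cases and lower in 2. *C3*, the central component (chromosome 17, 57203970 to 57228136), was at 0.444, 0.0549 and 0 CPM in NSPs and 104, 128 and 117 CPM at 72 h (log2 fold change 9.47 ± 0.80, edgeR adjusted p = 1.23e-08). *C4b* was at 4.19, 8.73 and 8.25 CPM in NSPs and 452, 641 and 402 CPM at 72 h (log2 fold change 6.13 ± 0.50, edgeR adjusted p = 7.7e-09), and *Hc*, which encodes C5, at 0.635, 0.494 and 0.284 CPM in NSPs and 23.3, 25.3 and 33 CPM at 72 h (log2 fold change 5.84 ± 0.39). The classical pathway proteases *C1s1* (5.77) and *C1ra* (5.22) and the regulator *Serping1* (3.87) rose with them, while *C2* (-1.95) and *Masp1* (-1.81) were lower. *C4b* has a near-identical copy, as have *H2-D1* and the histone genes, and the counting could split reads between such copies. *Cd59a*, an inhibitor of the membrane attack complex, was at least 110-fold higher. The C1q subunit genes, made mainly by microglia, had too few counts to be tested, and 6 microglial markers together reached 3.10 CPM at most in any of the 6 libraries.

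In the antigen presentation and interferon list 15 of 25 genes were higher and 1 lower. The class I gene *H2-D1* was at 2.28, 2.97 and 3.36 CPM in NSPs and 12, 15.6 and 17.3 CPM at 72 h (log2 fold change 2.38 ± 0.27), and the interferon-induced gene *Ifit3* at 0.19, 0.604 and 1.14 CPM in NSPs and 17.9, 23.1 and 23.4 CPM at 72 h (log2 fold change 5.02 ± 0.36). *Nlrc5*, an activator of class I genes, had a log2 fold change of 4.09. The member that fell was the immunoproteasome subunit gene *Psmb9* (-1.69). Chemokine and cytokine genes were mixed, with 3 higher and 5 lower of 13. *Csf1*, a growth factor of microglia, was at 29.1, 27.7 and 24.5 CPM in NSPs and 158, 159 and 168 CPM at 72 h (log2 fold change 2.58 ± 0.11), while the alarmin gene *Il33* (-2.58) and *Cxcl14* (-2.37) were lower.

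**Figure D4:**
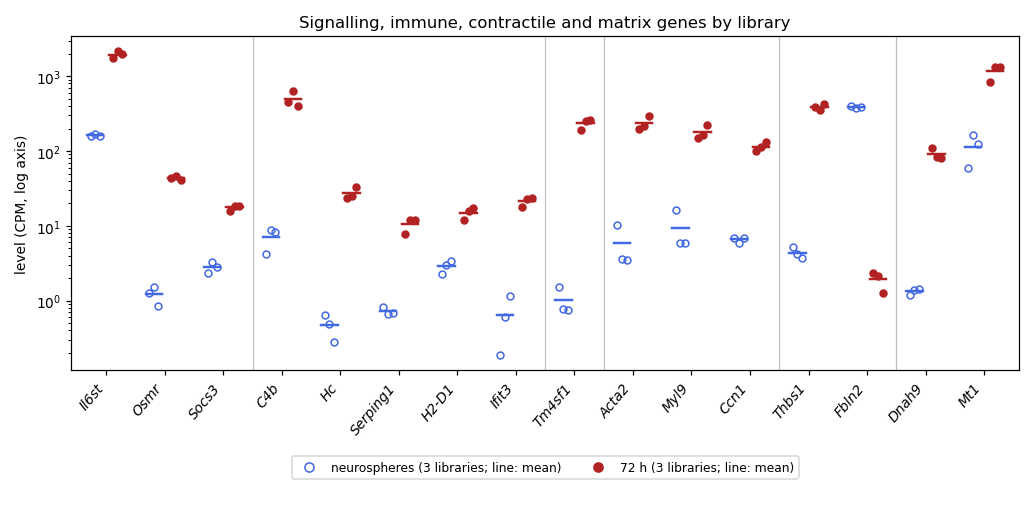
Level in CPM (log axis) of gp130, complement, antigen presentation, contractile, matrix, cilium and metallothionein genes in each of 3 NSP cultures (open circles) and 3 cultures at 72 h (filled circles), with the group mean as a line. Every gene shown was higher at 72 h with no overlap between the groups, except *Fbln2*, which was lower.

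Contractile and cytoskeletal genes, many of them targets of SRF and YAP, were higher in 16 of 21 cases and lower in 2, with a median log2 fold change of 1.91 (1.87 with genes at the detection floor set to their bound). *Acta2*, smooth muscle actin, rose 40.7-fold, with 10.3, 3.62 and 3.53 CPM in NSPs and 195, 219 and 292 CPM at 72 h (log2 fold change 5.35 ± 0.62, edgeR adjusted p = 8.84e-07). *Myl9*, a myosin light chain gene, was at 16.4, 5.99 and 5.97 CPM in NSPs and 150, 162 and 225 CPM at 72 h (log2 fold change 4.25 ± 0.52), and the YAP target *Ccn1* at 6.98, 5.99 and 6.83 CPM in NSPs and 98.8, 113 and 132 CPM at 72 h (log2 fold change 4.12 ± 0.22). *Mylk* (-2.83) and *Smtn* (-1.13), also of smooth muscle, were lower. Markers of mural cells and fibroblasts were summed beside them: 6 such markers were between 0.254 and 0.604 CPM in NSPs and between 2.48 and 3.80 CPM at 72 h. Most of the sum at 72 h came from *Rgs5*, at 0.0635, 0 and 0.114 CPM in NSPs and 2.19, 3.13 and 2.15 CPM at 72 h. At 72 h 2 of the markers were at 0. The part of such cells in the rise of contractile genes was not tested.

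Extracellular matrix genes moved in both directions, with 13 higher and 16 lower of 38. *Thbs1*, a secreted thrombospondin of synapse formation, was at 5.27, 4.17 and 3.7 CPM in NSPs and 384, 349 and 426 CPM at 72 h (log2 fold change 6.47 ± 0.56). *Fbln2*, a basement membrane protein gene (chromosome 6, 91212455 to 91272540), fell 207-fold, with 403, 380 and 392 CPM in NSPs and 2.35, 2.15 and 1.27 CPM at 72 h (log2 fold change -7.69 ± 0.34, edgeR adjusted p = 4.35e-12). *Col8a1* was at least 82.2-fold higher. The laminin chain gene *Lama1* (-5.11) and the collagen IV gene *Col4a1* (-1.32) were lower, whereas *Col4a6* was higher (3.84). Among adhesion receptors, 9 were higher and 16 lower of 32, and the laminin receptor subunit gene *Itga3* was at 0.508, 1.15 and 1.19 CPM in NSPs and 126, 116 and 115 CPM at 72 h (log2 fold change 6.94 ± 0.23). The glypican gene *Gpc4* was at 16.5, 10.6 and 9.1 CPM in NSPs and 268, 154 and 153 CPM at 72 h (log2 fold change 3.99 ± 0.37). The largest falls among these receptors were those of *Sdc1* (-2.21) and *Cdh13* (-2.10). The protease inhibitor gene *Timp2* was at 44.3, 50.3 and 46.3 CPM in NSPs and 421, 393 and 433 CPM at 72 h (log2 fold change 3.15 ± 0.16), and the plasminogen activator gene *Plau* was higher (4.25).

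Genes of the motile cilium rose broadly: 30 of 33 tested members were higher and 1 lower, with a median log2 fold change of 3.29 (3.28 at the bound). Further members of the list, some at 0 in both groups, had too few counts to be tested. The axonemal dynein heavy chain genes *Dnah9* and *Dnah5* had log2 fold changes of 6.08 and 5.64, and *Dnah6* was at least 142-fold higher. *Dnah9* was at 1.21, 1.37 and 1.42 CPM in NSPs and 109, 83.7 and 81.2 CPM at 72 h. *Rfx2*, a regulator of ciliary genes, was higher (3.49), and *Hydin*, a protein of the central pair, was the member that fell, with 8.31, 5.33 and 5.4 CPM in NSPs and 2.19, 2.02 and 0.991 CPM at 72 h (log2 fold change -1.88 ± 0.39). Summed over 5 markers of ependyma, the multiciliated lining of the ventricles, the level was from 28.7 to 48.8 CPM in NSPs and from 325 to 429 CPM at 72 h, and all 5 were higher.

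Metal-handling genes were higher in 15 of 26 cases and lower in 4. The metallothionein gene *Mt1* was at 59, 163 and 123 CPM in NSPs and 843, 1313 and 1315 CPM at 72 h (log2 fold change 3.33 ± 0.31), and *Mt2* rose alike (3.39). *Tfrc*, the transferrin receptor, was at 710, 270 and 283 CPM in NSPs and 63.5, 66.9 and 85.8 CPM at 72 h (log2 fold change -2.54 ± 0.29), while the ferroxidase gene *Cp* was at 64.8, 103 and 109 CPM in NSPs and 795, 819 and 955 CPM at 72 h (log2 fold change 3.21 ± 0.19) and the iron exporter gene *Slc40a1* had a log2 fold change of 4.04. Lysosomal genes were higher in 15 of 30 cases and lower in 5, mostly by less than 2-fold, and the cathepsin gene *Ctsl* was among the larger changes (2.00). Of chaperone and unfolded protein response genes 8 were higher and 9 lower of 23, and the lower count came to 5 without 72 h replicate 1 and to 4 without NSP replicate 1. The small heat shock gene *Hspb8* was at 10.8, 13.5 and 12 CPM in NSPs and 268, 361 and 444 CPM at 72 h (log2 fold change 4.89 ± 0.27) and *Cryab* rose as well (3.29).

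In the chromatin and DNA methylation list 14 of 24 were lower and 5 higher, the latter coming to 3 without NSP replicate 1 or 72 h replicate 2. *Dnmt1*, the maintenance DNA methyltransferase, had a log2 fold change of -2.56, the helicase gene *Hells* one of -4.73 and *Hmgb2* one of -3.79. Some Polycomb genes rose: *Cbx7* was at 6.73, 12.4 and 13.3 CPM in NSPs and 46.5, 52.9 and 43.6 CPM at 72 h (log2 fold change 2.14 ± 0.20) and *Ezh1* was higher (1.28). *Lmnb1*, which encodes lamin B1, was at 269, 146 and 158 CPM in NSPs and 8.4, 10.2 and 10.2 CPM at 72 h (log2 fold change -4.30 ± 0.28).

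Markers of other cell types were checked, both of lineages that NSPs can form and of other brain cells. Oligodendrocyte lineage genes were lower in 8 of 13 cases and higher in 2. *Cspg4*, which encodes NG2 of oligodendrocyte precursors, was at 67.8, 145 and 140 CPM in NSPs and 11.1, 10.2 and 7.04 CPM at 72 h (log2 fold change -3.64 ± 0.43), and *Pdgfra* was lower (-2.40). *Cnp* was at 63.1, 111 and 108 CPM in NSPs and 362, 499 and 493 CPM at 72 h (log2 fold change 2.26 ± 0.21) and *Mal* was higher (2.79); both are myelin genes. Neuronal genes were lower in 14 of 17 cases and higher in none, among them *Dcx* (-3.01) and *Elavl4* (-3.55), while the sum over 7 neuronal markers was from 1618 to 2093 CPM in NSPs and from 1574 to 1627 CPM at 72 h. Microglial markers had sums of 1.88 to 2.25 CPM in NSPs and 1.76 to 3.10 CPM at 72 h, and endothelial markers sums of 1.93 to 4.51 CPM and 5.30 to 6.75 CPM.

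Among all protein-coding genes with at least 5 CPM in the higher group, several of those with the largest increases were at or near 0 in NSPs. *Elobl* was at 0 counts in all NSPs and at 63.7, 76.4 and 93.3 CPM at 72 h, at least 444-fold higher, and *Ccn5*, a secreted relative of *Ccn1*, was at least 547-fold higher. *Slco1a4*, an organic anion carrier gene, was at 0, 0.275 and 0.569 CPM in NSPs and 256, 258 and 304 CPM at 72 h (log2 fold change 9.84 ± 0.70). The prostaglandin receptor gene *Ptger3* was at least 170-fold higher. By the same rule the 10 largest losses among protein-coding genes included *Mki67*, *Bub1*, *Ska1* and *Ube2c*, described above, *Pbk* and *Kif14*, also of mitosis (at least 403-fold and 213-fold lower), and the transcription factor genes *E2f8* and *E2f2* of the G1 list (at least 80.1-fold and 73.1-fold lower).

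By CPM gained, *Macf1*, *Gfap* and *Il6st* led, and by CPM lost, *Eef1a1*, *mt-Co1* and *Ckb*. *Macf1*, a linker of actin and microtubules, was at 1619, 1431 and 1530 CPM in NSPs and 4698, 3910 and 3881 CPM at 72 h (log2 fold change 1.45 ± 0.15), and *Tmem47*, a junction protein gene, at 129, 208 and 203 CPM in NSPs and 1447, 1788 and 1886 CPM at 72 h (log2 fold change 3.25 ± 0.20). The amino acid carrier gene *Slc38a1* was at 379, 424 and 412 CPM in NSPs and 2064, 1994 and 1774 CPM at 72 h (log2 fold change 2.26 ± 0.24), and *Cpe*, a carboxypeptidase of secretory granules, at 532, 858 and 751 CPM in NSPs and 1822, 2566 and 2428 CPM at 72 h (log2 fold change 1.67 ± 0.22). The growth factor gene *Ptn* fell, with 2040, 1868 and 1756 CPM in NSPs and 109, 125 and 176 CPM at 72 h (log2 fold change -3.79 ± 0.23), and so did *Ckb*, brain creatine kinase, with 4004, 5853 and 5466 CPM in NSPs and 1494, 2012 and 2094 CPM at 72 h (log2 fold change -1.45 ± 0.30). *mt-Co1*, a mitochondrially encoded subunit of cytochrome c oxidase, was at 9878, 9626 and 9396 CPM in NSPs and 4635, 6158 and 6992 CPM at 72 h (log2 fold change -0.70 ± 0.23, edgeR adjusted p = 0.0162), a call lost without 72 h replicate 1 (-0.55, edgeR adjusted p = 0.0827). All mitochondrially encoded genes together took 3.16% ± 0.21 of counts in NSPs and 3.34% ± 0.13 at 72 h (SD, n = 3 each, exact permutation test, two-sided p = 0.3). The groups did not overlap in any of these genes.

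Non-coding genes that were called were mostly higher, and protein-coding genes more often lower. Of 13784 protein-coding genes tested, 25.9% were higher and 35% lower. Of 783 long intergenic RNAs, 37.9% were higher and 13.3% lower, and of 1278 antisense genes, 32.9% and 9.0%. CPM are shares of a library, and whether the strand was used in counting is not given in the sources used here, so antisense genes cannot be told from the genes they overlap. *C230072F16Rik* was at least 92.7-fold higher, and *9630028B13Rik* was at 9.96, 52.4 and 56.8 CPM in NSPs and 1.29, 0.798 and 1.27 CPM at 72 h (log2 fold change -5.15 ± 0.54). Among the genes that varied most between the 72 h cultures, *Lars2* was at 1134, 450 and 536 CPM in NSPs and 1126, 512 and 2252 CPM at 72 h and *Gm10800* at 1.21, 2.75 and 2.39 CPM in NSPs and 19.6, 56 and 2.53 CPM at 72 h, where the log2 fold change of 3.60 came to 2.34 without 72 h replicate 2.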

How the data were processed

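Total RNA was depleted of ribosomal RNA, made into stranded paired-end libraries and sequenced. The tools were FastQC for read quality, Trim Galore for trimming, STAR for alignment, SAMtools for sorting and featureCounts for counting, on build mm10 per the submitters' processing notes, and the authors deposited raw counts of reads per gene, not normalized. Versions and the strand setting are not given in the sources used here. Of the genes named in the text, 10 share over 20% of their exon bases with another gene and are uncertain (*C2*, *Ccnd1*, *Ctsl*, *Fdps*, *Gpld1*, *Hes5*, *Hopx*, *Mt2*, *Spry1* and *Ube2c*). *Cdh13*, *Rgs5*, *Sdc1* and *Stat3* were not checked for such overlap.

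Here edgeR 4.0.16 (limma 3.58.1, R 4.3.3) was fitted to all 18 libraries after its count filter by group, with TMM factors and a mean per group. The quasi-likelihood test compared 72 h with NSPs, with Benjamini-Hochberg adjustment over 20067 genes. DESeq2 1.42.0 was an alternative. Names and positions come from GENCODE M21 (GRCm38), which held 54809 of the 54838 identifiers, and RPKM use summed exon length. Where a group had at most 3 counts in each library, a lower bound of the fold was computed against 3 counts per library. Floors cover counting error only, and standard errors include the spread between cultures. On simulated counts for 19417 genes, edgeR found 77 of 100 genes changed by 1 log2 unit and 100 of 100 changed by 2, with 8 false calls.

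The comparison, the 45 gene lists and the genes were chosen with earlier results of these data known. Named genes are the first and the most changed members of each list, members called against their list, the largest changes over the table, the most variable genes at 72 h, defining cell type markers and genes the study names; some were omitted for length. Alternatives were other normalizations, filters, thresholds and fits, and leaving out each library. Some genes are not reported here.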

Additional observations from a re-analysis of the deposited data

How the results depend on the processing

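The 11104 calls came to between 8399 and 11718 under RLE or upper quartile factors, DESeq2, other count filters, an adjusted p under 0.01 and a fit of the 6 libraries alone, and to between 9938 and 11006 with 1 library left out. Upper quartile factors moved the median log2 fold change of all genes from 0.05 to 0.20 and the calls to 6671 higher and 4605 lower. The 6481 changes of 2-fold or more came to 3796 (2234 higher and 1562 lower) when tested against a 2-fold threshold with glmTreat, to 3697 with at least 10 counts in every library, where fewer genes were tested, and to between 6054 and 6952 with 1 library left out. The 697 calls among list genes came to between 667 and 685 with 1 library left out and to 557 with at least 10 counts in every library. Within 100 bases around the start, CCAAT was in 52.9% of mitosis, 35.1% of DNA replication and 13.6% of all promoters, and CHR letters in 76.5%, 5.41% and 5.31%. The log2 fold change of *Ppp1r3c*, never called, was 0.083, from -0.0783 (without NSP replicate 1) to 0.231 with 1 library left out, and -0.102 with the block that left 72 h replicate 3 unpaired. The replicate numbers were not taken as a pairing. Deviations of same-numbered cultures correlated at 0.219, 0.150 and 0.0525, and those of differently numbered cultures at values from -0.199 to 0.130. With 3 cultures per group these values cannot settle whether the numbers mark a pairing. The column of 72 h replicate 3 carries another number. With the replicate block 11012 genes were called, 10888 of them shared with the fit without it, and with 72 h replicate 3 left unpaired (added after seeing the data) 10524. Levels near 3 counts are limited by depth.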

Other observations

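Lists of IGF and guidance genes, not described above, had shares of higher and lower members close to those of all tested genes (28.1% and 27.2%), with some large changes among them. *Igf1* was at 0, 0.165 and 0.398 CPM in NSPs and 10.5, 9.63 and 11.5 CPM at 72 h (log2 fold change 5.72 ± 0.67), while its binding protein genes *Igfbp2* (837, 772 and 790 CPM in NSPs and 73.6, 62 and 99.4 CPM at 72 h) and *Igfbp4* (111, 158 and 144 CPM in NSPs and 2.8, 2.82 and 3.63 CPM at 72 h) were lower, with log2 fold changes of -3.35 and -5.47; over the IGF list 4 were higher and 3 lower of 13. *Vegfa*, the vascular growth factor, fell, with 39.7, 95 and 90.6 CPM in NSPs and 6.58, 6.93 and 5.61 CPM at 72 h (log2 fold change -3.56 ± 0.68). In the guidance list 9 were higher and 9 lower of 30: the secreted semaphorin gene *Sema3c* was at 10.8, 11.4 and 10.1 CPM in NSPs and 224, 225 and 287 CPM at 72 h (log2 fold change 4.51 ± 0.21) and the netrin receptor gene *Dcc* had a log2 fold change of -4.54.

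Imprinted genes were higher in 7 and lower in 4 of 15 cases. *Plagl1*, a zinc finger gene, was at 3.11, 3.02 and 2.28 CPM in NSPs and 147, 114 and 87.6 CPM at 72 h (log2 fold change 5.37 ± 0.38), and *Grb10*, an adaptor of insulin and IGF receptors, had a log2 fold change of -4.28. S100 genes were higher in 5 and lower in 2 of 8 cases. Trophic and synapse-organising factors were higher in 12 and lower in 6 of 26 cases, and proteases and their inhibitors in 11 and 5 of 25. Of 5 tested genes of a microglia and macrophage list 2 were higher and 0 lower, of 8 of an endothelial list 1 and 2, of 5 of a mural cell and fibroblast list 2 and 1, and of 9 intermediate filament genes 4 and 3.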
